A study of Mus musculus with 17 samples.

Results

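The Tceal (transcription elongation factor A-like) and Bex (brain-expressed X-linked) genes code for small proteins and lie mostly on the X chromosome of placental mammals. The 10 genes described here are Tceal1, Tceal3, Tceal5, Tceal6, Tceal8, Tceal9, Bex1, Bex2, Bex3 and Bex4, which is 10 of the 48440 genes in the table. They were chosen by gene symbol, with earlier results of these data known, among them a low Tceal5 after Poly(I:C). The values of these genes in the comparison of the prenatal groups are therefore given as a description, without p-values. All 10 had at least 1 TPM (transcript abundance scaled for transcript length and library total) in at least 8 libraries and so were among the 14144 genes that entered the comparison.

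The libraries came from whole frontal cortex of male C57BL/6J mice at postnatal day 189, 1 library per animal. The 9 Poly(I:C) animals were born to dams injected intraperitoneally on G12.5 (a gestational day) with 20 mg/kg of Poly(I:C), a double-stranded RNA analogue that activates antiviral immunity and serves as a model of infection in pregnancy. The 8 saline animals were born to dams given 0.9% saline. The offspring themselves received no agent according to the labels. The labels count 11 dams and do not tie offspring to litters, so tests over animals treat littermates as independent.

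Tceal proteins share a region related to transcription elongation factor A, the factor that lets stalled RNA polymerase II resume. Bex proteins are short, largely disordered adaptors. Bex1 and Bex3 were described as binding the intracellular part of the p75 neurotrophin receptor, and Bex3 (also called Nade) as linking that receptor to cell death. Bex2 was described in complexes with the transcriptional cofactor Lmo2, and Bex4 as a tubulin-binding protein. Tceal1 was described as a modulator of transcription, and Tceal9 was first named for binding WW domains. Genes of both families are known for high expression in brain neurons, and a sequence motif shared near their first exons and those of the neighbouring Gprasp and Armcx genes has been described.

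In the GENCODE M21 annotation of GRCm38 the 10 genes lie on chromosome X, between Tceal6 at 135208687-135210687 and Tceal1 at 136707982-136711478. With the further family gene Tceal7 this makes 11 family genes in 1.5 Mb that hold 67 annotated genes. A core of 205 kb, from 136066564 to 136271978, holds 8 of them in the order Bex2, Bex4, Tceal8, Tceal5, Bex1, Tceal7, Tceal9 and Bex3. Tceal3 lies at 136590842-136668378, beyond the core. Each of the 10 genes has its whole coding sequence in 1 exon, for example 600 coding bases without the stop codon in Tceal5 and 384 in Bex1. Bex1 and Tceal7 overlap by 735 bases on opposite strands. Bex6, a further family gene, lies on chromosome 16.

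The sequences around the start sites are shown because most of the 10 genes share 1 composite element there, which the choice of genes did not use. RefSeq promoter windows of GRCm38.p6, from 250 bases before the start site to 50 after it, were matched for all 10 genes. Each line gives the coordinates and strand of a 30-base stretch, 5′ to 3′, with the 2 blocks of the element in capitals.
Tceal5, chrX:136203887-136203916, minus: actggTGACGttcctgtCACGTGAtcagga
Tceal6, chrX:135210689-135210718, minus: tagggTGACGctttgctCACGTGActggct
Tceal3, chrX:136666361-136666390, plus: tcgggTGACGcggtgttCACGTGAccggcc
Tceal8, chrX:136172222-136172251, minus: attgaTGACGcgatcctCACGTGAccagca
Bex1, chrX:136215504-136215533, minus: gcttcTGACGcaagtggCACGTGActagcc
Bex4, chrX:136138970-136138999, plus: gcttcTGACGcaagtggCACGTGActagcc
Bex3, chrX:136270261-136270290, plus: ggcagTGACGcagggccctCACGTGAcccg
Tceal1, chrX:136707962-136707991, plus: agctgTGACGcgctcccctCACGTGAccag
Tceal9, chrX:136245071-136245100, plus: actggTGACGtagatctCATGTGAccagga

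The first block, TGACG, is the core of sites bound by the CREB and ATF factors, and the second contains the E-box CACGTG, read by basic helix-loop-helix factors such as USF1 and USF2. The form TGACGNNNNNNNCACGTGA was in the windows of 6 of the 10 genes (Bex1, Bex4, Tceal3, Tceal5, Tceal6 and Tceal8). The form TGACGNNNNNNNNNCACGTGA, with a spacer of 9 bases in place of 7, was in those of Bex3 and Tceal1. Searched on both strands, 1 or the other form was in the windows of 16 of 27025 genes (0.0592%), of which 12 were on chromosome X. Those 16 were the 8 genes just named, their neighbours Armcx1, Armcx4 and Armcx6, and Gm40744, Rcbtb1, Ubap2, Vps33a and B230119M05Rik. Tceal9 carries CATGTGA in place of the second block. The Bex2 window holds no match, but its GENCODE transcript has the 2 blocks from its base 51. The spacer was left freer in that search, and its length was not recorded. The blocks lie just past the end of the window if RefSeq and GENCODE place the start alike, which was not checked. The 2 blocks were chosen after these promoters had been read, so the counts describe the sequences and are no test, and a match of letters is not evidence of binding.

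Single motifs were more widespread, and their matches overlap with those of the composite element. CACGTG was in the windows of 8 of the 10 genes and of 8.09% of all genes, TCACGTGA in 6 of the 10 and 1.13%, and TGACG in 10 of the 10 and 23.0%. Over the 10563 tested genes with a promoter window, the shares were higher, at 11.7%, 2.18% and 35.3%. RefSeq gives 3 start sites for Tceal5 and 3 for Tceal3, and positions are given from the one nearest the element. The first base of the element was 27 bases before the start in Tceal5, 26 before in Tceal6 and 21 before in Bex4, while in Tceal8 and Bex3 it began 5 and 13 bases inside the transcript. From a further start site it began 179 bases before the start in Tceal5 and 245 before in Tceal3. The 250 bases before the Tceal5 start (chrX:136203885-136204134, minus strand) show where the element sits at the end of that promoter, again in capitals.
Tceal5 promoter: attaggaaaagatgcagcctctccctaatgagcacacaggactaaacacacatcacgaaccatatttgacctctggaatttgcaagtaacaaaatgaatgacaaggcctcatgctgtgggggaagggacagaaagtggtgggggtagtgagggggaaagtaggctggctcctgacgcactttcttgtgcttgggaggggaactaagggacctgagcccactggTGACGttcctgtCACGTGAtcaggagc

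**Figure D1:**
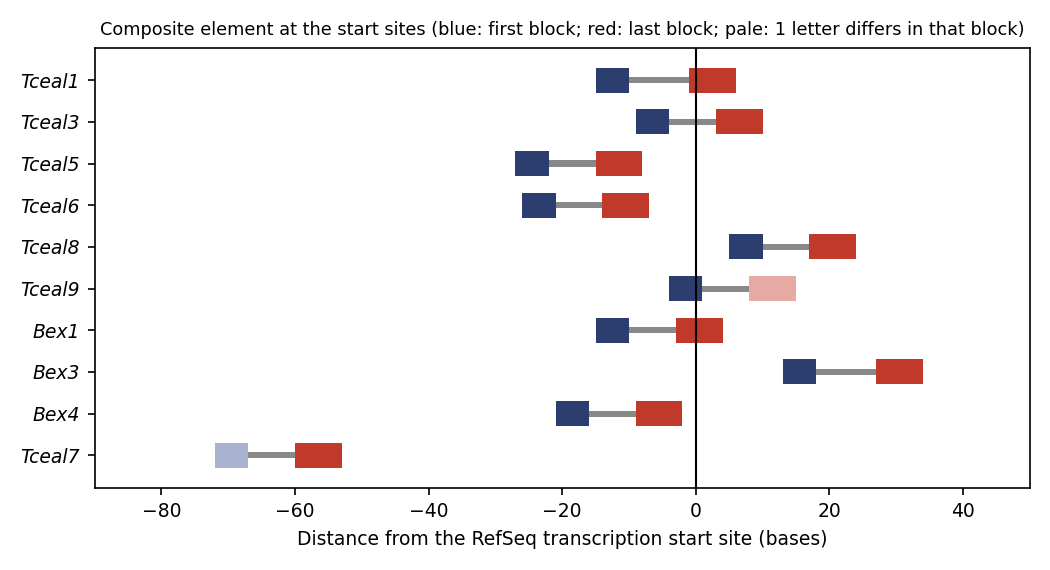
Position of the composite element relative to the nearest RefSeq start site of each gene (0, vertical line), in bases, for the 9 genes shown above and Tceal7. Blue is the first block, red the second, grey the spacer, and a pale block differs by 1 letter: the second block of Tceal9 and the first block of Tceal7. Apart from Tceal7, all lie within 40 bases of that nearest start; further start sites of Tceal3 and Tceal5 are not drawn.

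The shared sequence extends beyond the element in some pairs. The promoter windows of Bex1 and Bex4 were identical at 291 of 294 aligned bases, and those of Bex2 and Bex3 at 235 of 262. Among transcripts, Tceal3 and Tceal6 were 98.3% identical over 897 bases, Bex1 and Bex4 98.9% over 265 bases, and Bex2 and Bex3 99.6% over 222 bases. This bears on the levels, since the reads were 100 bases long and single-end. Windows of 100 bases were taken along the longest coding transcript of each gene. They were counted as shared only where every base matched a transcript of another gene. Near-identical windows were not counted, so the shares do not cover all reads that are hard to place. Of all 100-base windows, 16.3% of those of Tceal3 and 16.8% of those of Tceal6 were shared between these genes. For Bex1 21.1% and for Bex4 26.0% were shared with another gene, and for Bex2 8.71% and for Bex3 7.31%. Reads from such windows are apportioned by the estimator, so the division within Tceal3 and Tceal6, Bex1 and Bex4, and Bex2 and Bex3 is less certain than their sums. Tceal1, Tceal5, Tceal8 and Tceal9 shared no 100-base window with another gene. Tceal5 was 85.8% identical to Tceal3 over 755 bases.

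A pair of libraries, replicate 7 of each group, stood apart in markers of olfactory bulb or of myelin and striatum. Saline replicate 7 had 45.94 TPM summed over 5 olfactory bulb markers against 4.65 to 8.13 in the other 16 libraries. Poly(I:C) replicate 7 had 3062 TPM summed over 6 myelin markers against 1474 to 2105 elsewhere, and 199.5 TPM over 7 striatal markers against 109 to 156. General markers of neurons, 6 genes, summed to between 4674 and 5610 TPM in the 17 libraries. Such markers do not set frontal cortex apart from other brain regions, so they do not check that label.

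TPM is scaled by transcript length, so levels can be compared between genes. Bex3 and Bex2 were the most abundant, with means of 335.5 and 334.9 TPM over all 17 libraries, and Bex3 was the higher of the pair in 8 of 17 libraries. Tceal3 followed at 231 TPM, Tceal5 at 149.7, Bex1 at 98.7, Tceal6 at 84.4, Tceal9 at 72.1, Tceal8 at 56.7, Bex4 at 26.4 and Tceal1 at 9.98 TPM. Bex3 and Bex2 stood at the 98th percentile of the mean TPM of the tested genes and Tceal1 at the 41st. Apart from Bex3 and Bex2, neighbours in this order kept the order in at least 16 of 17 libraries, although the ranges of Tceal3 and Tceal5, of Bex1 and Tceal6, and of Tceal6 and Tceal9 overlapped. The spread over libraries, as the coefficient of variation of TPM, was smallest for Tceal8 (4.8%) and largest for Tceal5 (14.0%). The further family genes were scarce: Tceal7 had 1.35 ± 0.536 TPM in Poly(I:C) (SD, n = 9) and 1.5 ± 0.480 in saline (SD, n = 8), and Bex6 reached at most 0.1 TPM in any library.

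**Figure D2:**
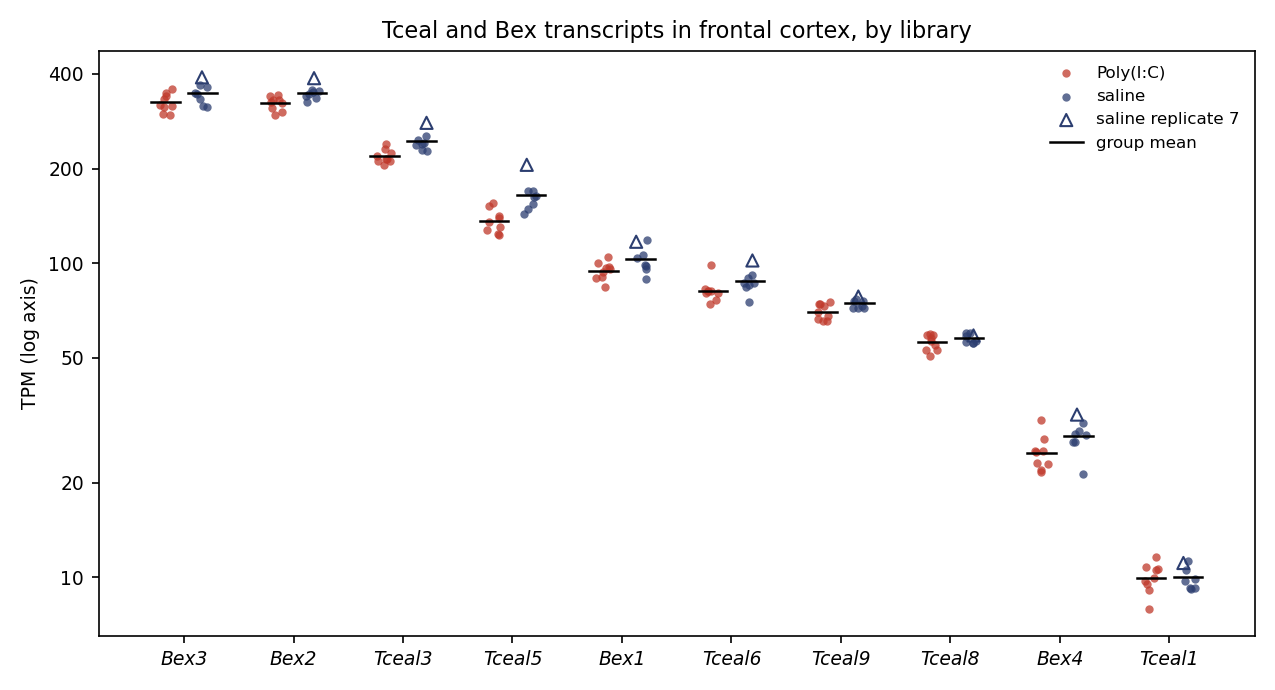
TPM of each gene in each library, on a log axis, with Poly(I:C) in red (n = 9), saline in blue (n = 8) and the group mean as a black line. Open triangles mark saline replicate 7, the highest of all libraries for 7 of the 10 genes, and the points of the groups overlap for every gene.

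The comparison of the prenatal groups asks whether immune activation of the dam goes with altered transcript levels in adult frontal cortex. Across the 14144 genes, none was called by limma on log2(TPM + 1) at a Benjamini-Hochberg adjusted p of at most 0.05 (0% of genes), none of the 10 genes among them. At an unadjusted p under 0.05 limma had 1237 genes, of which 1110 were lower in Poly(I:C) (7.85% of genes), and the exact Mann-Whitney test had 1132 with none called after adjustment. In bulk tissue, fewer cells of a type and less RNA per cell cannot be told apart. All 10 genes had a lower mean log2 value in Poly(I:C), as had 71.0% of all genes. After the table was rescaled by median of ratios, which centres the typical gene, 9 of the 10 were lower beside 50.9% of all genes. The exception was Tceal1, at 0.025 against -0.0091 before rescaling. The median log2 difference was -0.10 over the 10 genes and -0.035 over all genes, and -0.068 and -0.0014 after rescaling.

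Tceal5 differed most. Its TPM ran from 123 through a median of 135 to 156 in Poly(I:C) and from 143 through 163 to 205 in saline. Every Poly(I:C) library lay below the saline median, and 7 of 9 lay below the lowest saline library, but the groups overlapped. The means were 136 ± 11.8 TPM (SD, n = 9) and 165 ± 19.1 TPM (SD, n = 8), so that Poly(I:C) stood at 82.8% of saline. The log2 difference was -0.27 ± 0.062 (SE), -0.23 after rescaling and -0.22 without replicate 7 of both groups.

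Tceal3, the most abundant Tceal gene, ran from 205 through 214 to 239 TPM in Poly(I:C) and from 228 through 239.95 to 279.6 TPM in saline. Here too all 9 Poly(I:C) libraries were below the saline median, and 7 were below the lowest saline library. Its log2 difference was -0.16 ± 0.040 (SE), and -0.12 after rescaling. Its near copy Tceal6 ran from 73.8 through 81.2 to 98.6 TPM in Poly(I:C) and from 74.97 through 86.4 to 102 TPM in saline, largely overlapping ranges, with a log2 difference of -0.096 ± 0.054 (SE), and -0.059 after rescaling. Tceal6 was between 32.9% and 42.7% of Tceal3 over the 17 libraries.

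The other Tceal genes differed less. Tceal9 ran from 65.3 through 69.9 to 74.9 TPM in Poly(I:C) and from 71.95 through 74.2 to 78.2 TPM in saline, and 5 of 9 Poly(I:C) libraries were below the lowest saline library. Its log2 difference was -0.086 ± 0.035 (SE), and -0.049 after rescaling. Tceal8 had 55.9 ± 3.25 TPM (SD, n = 9; 50.8 to 59.3) against 57.6 ± 1.82 TPM (SD, n = 8; 55.6 to 59.9), and its log2 difference of -0.045 ± 0.036 (SE) was near the median of all genes, and -0.0078 after rescaling. Tceal1 had 9.96 ± 1.07 TPM (SD, n = 9; 7.91 to 11.6) against 10.01 ± 0.835 TPM (SD, n = 8; 9.18 to 11.2), a log2 difference of -0.0091 ± 0.062 (SE). The difference in Tceal1 was thus smaller than its error. Set against Tceal8 in the same library, which removes library-wide scaling, Tceal5 was at a ratio of 2.45 ± 0.223 (SD, n = 9, 2.13 to 2.77) in Poly(I:C) and 2.86 ± 0.318 (SD, n = 8, 2.49 to 3.49) in saline. The ratio restates the values of these 2 genes, both seen beforehand, and is no separate test.

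Among the Bex genes, Bex2 ran from 296 through 326 to 344 TPM in Poly(I:C) and from 325 through 348 to 388 TPM in saline. All 9 Poly(I:C) libraries were below the saline median and 4 were below the lowest saline library, with a log2 difference of -0.11 ± 0.036 (SE), and -0.076 after rescaling. Bex3, the p75 receptor adaptor, ran from 296 through 319.5 to 359 TPM and from 315 through 346 to 390.2 TPM, with a log2 difference of -0.096 ± 0.047 (SE), and -0.058 after rescaling. Bex1 ran from 83.96 through 95.9 to 105 TPM and from 88.8 through 101 to 119 TPM, with a log2 difference of -0.12 ± 0.054 (SE), and -0.083 after rescaling. Bex4 ran from 21.6 through 25.1 to 31.5 TPM and from 21.35 through 28.5 to 32.9 TPM, so its lowest library was a saline one. The log2 difference of Bex4, -0.17 ± 0.077 (SE), was second in size and had the largest error of the 10. It was -0.13 after rescaling. Poly(I:C) libraries below the lowest saline library also numbered 4 for Tceal8, 2 for Tceal1 and for Bex3, 1 for Tceal6 and for Bex1, and 0 for Bex4. The share of all tested genes with such counts was not computed.

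Summed, the 10 genes made up 1340 ± 62.7 TPM (SD, n = 9; 1262 to 1432) in Poly(I:C) and 1466 ± 92.9 TPM (SD, n = 8; 1372 to 1663) in saline, or 0.134% and 0.147% of all TPM. The Bex genes held a like share of this sum in both groups, 57.2% ± 1.26 (SD, n = 9) and 56.5% ± 1.02 (SD, n = 8). Within the Tceal sum, Tceal5 held 23.8% ± 0.946 (SD, n = 9) and 25.7% ± 1.43 (SD, n = 8).

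**Figure D3:**
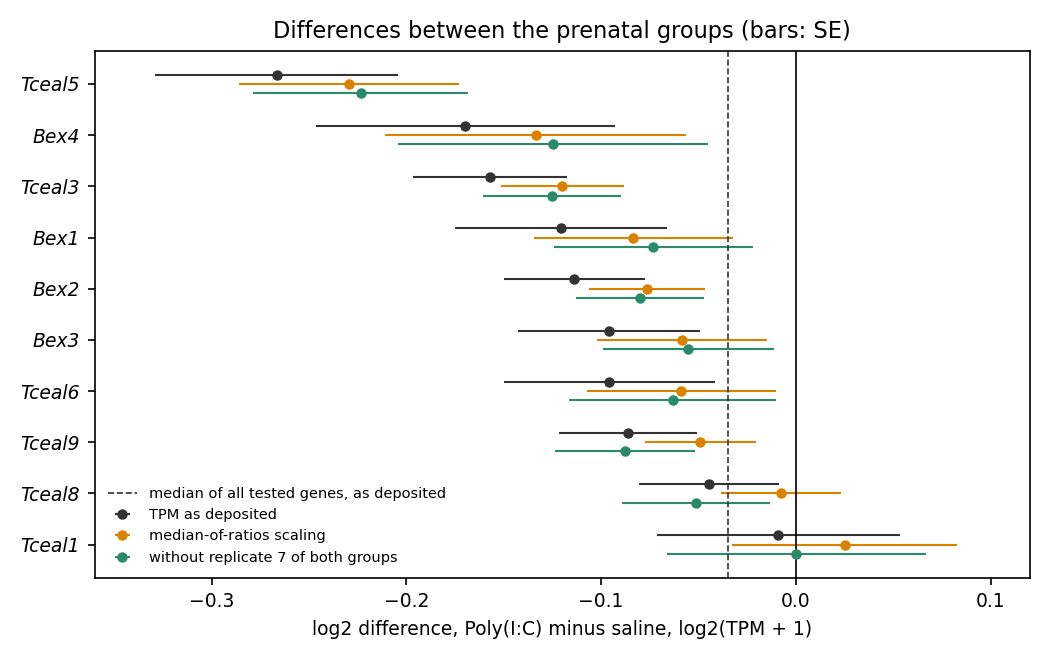
Log2 difference (Poly(I:C) minus saline, on log2(TPM + 1)) of each gene, with SE bars, for the deposited TPM, after median-of-ratios scaling and without replicate 7 of both groups. The dashed line is the median of all tested genes as deposited; Tceal5 lies farthest to the left at -0.27, -0.23 and -0.22, and Tceal1 lies at 0 within its error.

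Saline replicate 7, with the high olfactory bulb markers, was also the highest of all 17 libraries for Tceal3, Tceal5, Tceal6, Tceal9, Bex2, Bex3 and Bex4. Without replicate 7 of both groups the median log2 difference of the 10 genes was -0.077 beside -0.025 for all genes, Tceal1 was at 0.00014, Tceal3 at -0.13, Bex4 at -0.12, Tceal9 at -0.088, Bex2 at -0.080, Bex1 at -0.073, Tceal6 at -0.063, Bex3 at -0.055 and Tceal8 at -0.051. The part of olfactory, striatal and myelin tissue in the differences was not tested. The cell type marker lists held no called gene. For their counts of lower genes, the share over all tested genes was 71.0% over all libraries. It was 66.6% without replicate 7 of both groups and 50.9% after rescaling. The lists in which replicate 7 of either group stood apart changed with its removal, which follows from leaving out the library that stood apart. The median log2 difference of the 3 olfactory bulb markers tested was -0.30 (3 lower) over all libraries and 0.030 (1 lower) without replicate 7 of both groups. For 6 oligodendrocyte markers it was 0.091 (0 lower) and 0.0041 (2 lower), and for 7 striatal markers 0.12 (0 lower) and 0.062 (1 lower). The median of 6 neuron markers was -0.035 (4 lower) over all libraries, -0.0052 (3 lower) without replicate 7 and 0.0022 (3 lower) after rescaling. Over all libraries and without replicate 7, the median was -0.010 and -0.0092 for 5 astrocyte markers, 0.0049 and 0.0038 for 6 microglia markers, -0.022 and 0.0047 for 4 oligodendrocyte precursor markers, and -0.031 and -0.041 for 5 endothelial markers.

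Genes related to the families by position or role were described in the same way. The 11 X-linked neighbours comprise 9 Gprasp and Armcx genes, which include genes for receptor-sorting and mitochondrial proteins, and the pair Arxes1 and Arxes2. Of the 11, 10 were lower in Poly(I:C) as deposited, all but Arxes1 (log2 difference 0.16), and none was called. After rescaling 7 were lower, and without replicate 7 of both groups 8 were. Beside these counts and those of the lists below, 71.0% of all tested genes were lower as deposited. The share was 50.9% after rescaling and 66.6% without replicate 7 of both groups. The medians of all tested genes were -0.035, -0.0014 and -0.025. Their median log2 difference was -0.085, -0.049 after rescaling and -0.059 without replicate 7. Gprasp2 had the smallest p of them, with 39.0 ± 4.88 TPM (SD, n = 9) and 45.8 ± 3.21 TPM (SD, n = 8) and an adjusted p of 0.49 by limma. The most abundant neighbour was Gprasp1, with 99.4 ± 6.51 TPM (SD, n = 9) against 106 ± 6.31 TPM (SD, n = 8). Saline replicate 7 was the highest library for 7 of the 11 neighbours. Of 28 transcription elongation factors, 25 were tested and none was called. Of those 25, 22 were lower as deposited and 17 after rescaling. Their median was -0.055 on the log2 scale as deposited and -0.020 once rescaled. Ssrp1, a subunit of the histone chaperone FACT, had the smallest p at a log2 difference of -0.13, and Elob, a subunit of elongin, was the most abundant at -0.0072 (0.030 after rescaling). Of 14 genes of p75 receptor signalling and reported Bex partners, 11 were tested, none was called, 8 were lower (5 after rescaling) and the median was -0.022 as deposited, 0.0038 after rescaling and -0.045 without replicate 7. Ywhae, which codes for the adaptor 14-3-3 epsilon, had both the smallest p and the highest level, at a log2 difference of -0.085 (-0.048 after rescaling). Ngfr, the p75 receptor gene itself, had means of 0.48 and 0.516 TPM and was too low to be tested.

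Whether the genes vary together from animal to animal was asked of the deviations of log2(TPM + 1) from the group means over the 17 libraries, which removes the difference between the groups. Of the 45 pairs, 41 had a positive Pearson's r, and the median r was 0.47, beside a median of 0.15 between these genes and the other tested genes. After rescaling, 33 of 45 were positive and the median was 0.32 beside 0.0018. The other tested genes were not matched to the 10 in abundance, and some pairs of the 10 share reads. The gap between these medians is therefore a description. Without replicate 7 of both groups the median was 0.39. The median was 0.65 over the 6 Bex pairs, 0.50 over the 15 Tceal pairs and 0.28 over the 24 pairs of a Tceal with a Bex gene, and after rescaling 0.66, 0.32 and 0.061. With p-values from 100000 permutations within groups (two-sided), adjusted over the 45 pairs, 10 pairs were at or under 0.05 by Pearson's r and 8 by both Pearson's r and Spearman's rho.

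The highest correlation was that of Tceal5 with Tceal6. Pearson's r was 0.81 (permutation p = 0.00023, adjusted 0.0041) and Spearman's rho 0.81 (permutation p = 0.00036, adjusted 0.012). It was 0.81 without the 2 libraries farthest from the median of Tceal5, 0.76 after rescaling, 0.70 within Poly(I:C) and 0.90 within saline. Tceal3 and Bex2 had r = 0.80 (permutation p = 0.00027, adjusted 0.0041) and rho = 0.77 (permutation p = 0.00069, adjusted 0.012), and r fell to 0.61 without the 2 farthest libraries. Tceal6 and Bex3 had r = 0.78 (permutation p = 0.0002, adjusted 0.0041) and rho = 0.67 (permutation p = 0.0064, adjusted 0.043). Tceal3 and Bex3 had r = 0.74 (permutation p = 0.00089, adjusted 0.010) and rho = 0.74 (permutation p = 0.0016, adjusted 0.018). Tceal3 and Tceal5 had r = 0.78 (permutation p = 0.0015, adjusted 0.011) and rho = 0.59 (permutation p = 0.020, adjusted 0.080), but r was 0.48 once the farthest libraries, replicate 9 of Poly(I:C) and replicate 7 of saline, were left out, so this relation leaned on those libraries. Bex2 and Bex3, which share sequence, had r = 0.73 (permutation p = 0.0014, adjusted 0.011) and rho = 0.74 (permutation p = 0.00078, adjusted 0.012). Bex1 and Bex4 had r = 0.66 (permutation p = 0.0047, adjusted 0.024) and rho = 0.67 (permutation p = 0.0044, adjusted 0.040). For pairs that share reads, the division by the estimator enters the correlation. Tceal8 and Tceal5, the least and the most variable genes, had r = 0.21 and, after rescaling, -0.069.

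**Figure D4:**
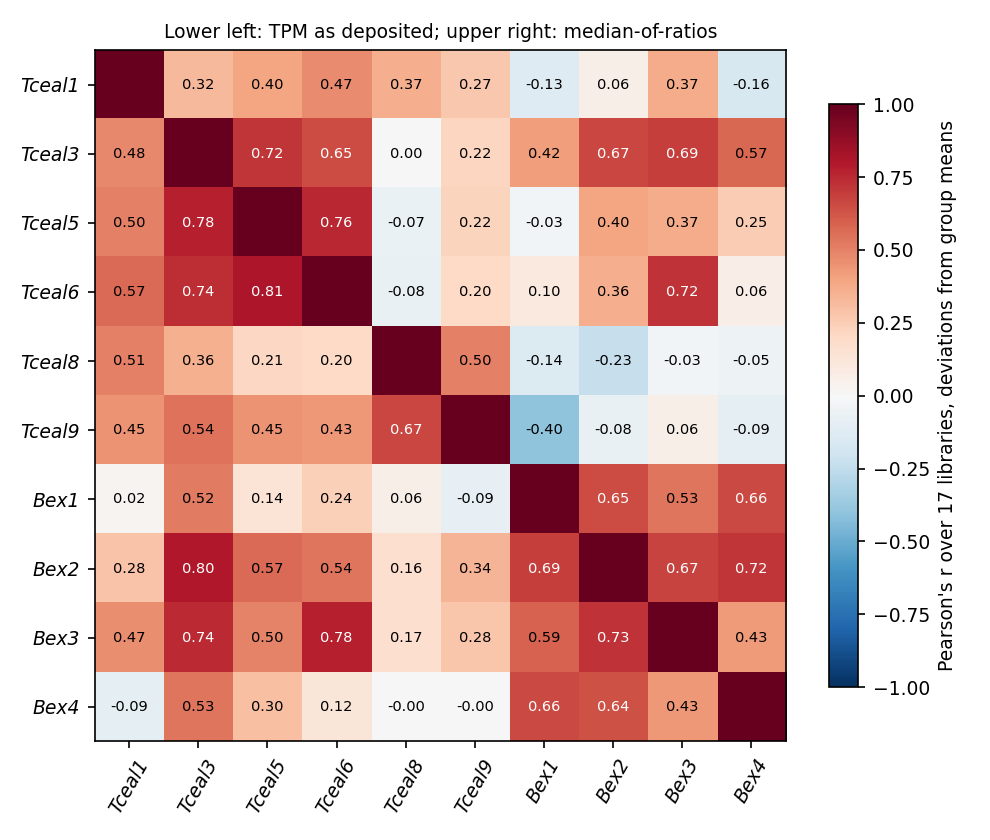
Pearson's r of the deviations from the group means for each pair of the 10 genes over 17 libraries, from the deposited TPM (lower left) and after median-of-ratios scaling (upper right). The Bex genes form a red block both below and above the diagonal, and Tceal3, Tceal5 and Tceal6 another. The blocks are not separate: Tceal3 with Bex2, Tceal3 with Bex3 and Tceal6 with Bex3 are red too (0.80, 0.74 and 0.78, and 0.67, 0.69 and 0.72 after rescaling). Bex3 with Bex4 is lower (0.43 and 0.43). Tceal8 and Tceal9 turn pale or blue against the Bex genes after rescaling.

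Among all 14143 other tested genes, the 5 most like Tceal5 by this measure over 17 libraries were Ctsl (r = 0.84), Slc25a4 (0.84), Coq3 (0.84), Frat1 (0.83) and Fbxw2 (0.81). Ctsl codes for the lysosomal protease cathepsin L, Slc25a4 for a mitochondrial ADP/ATP carrier and Coq3 for an enzyme of ubiquinone synthesis. Without replicate 7 of both groups these 5 had r between 0.71 and 0.77. Tceal6 ranked 8 in likeness to Tceal5. The 3 genes most like Bex2 were Basp1 (0.86), which codes for a growth cone membrane protein, Hnrnpk (0.84) and Zfp251 (0.83), and Tceal3 ranked 8. These genes were the extremes of many, so their r values are descriptions. For Tceal1 the best placed of the other 9 genes was Tceal6, at rank 1010.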

How the data were processed

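Poly(A)-selected, strand-specific RNA libraries of 17 frontal cortices (9 Poly(I:C), 8 saline) were sequenced single-end with reads of 100 bases, per the labels' protocols. The authors deposited TPM values per gene. Per the submitters' processing notes, the tools included RSEM 1.2.31, STAR 2.5.1b and Trim Galore 0.4.0, with the mm10 build. For the annotation release and strand setting, the sources used here give nothing. Every library sums to the same total of TPM, so the depth behind each value is unknown and no counting interval was computed. All 48440 genes were read and 48058 had a symbol in the name table. No pair of libraries was identical.

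The genes and the lists were chosen with earlier results of these data known. Genes with at least 1 TPM in at least 8 libraries were fitted by limma 3.58.1 (R 4.3.3; trend, pseudocount 1), comparing the groups with Benjamini-Hochberg adjustment over all 14144 genes. The fit was also run on simulated data with known changes. Those values were drawn independently for each gene and library, without litters or library-wide shifts. The simulation therefore does not show how the fit behaves where these are present. Alternatives were pseudocounts of 0.1 and 0.5, no filter, a minimum of 5 TPM, median-of-ratios and upper-quartile scaling, a replicate block, each library left out, replicate 7 of both groups left out, and an exact Mann-Whitney test. Shared sequence was searched with BLAST 2.17.0 and 100-base windows in GENCODE M21 transcripts. Outside the 10 genes, the text names the 5 genes most like Tceal5, the 3 most like Bex2, and in each list the gene with the smallest p and the most abundant one. Ngfr, Arxes1 and the genes whose promoters hold the element were named after their values or sequences were seen.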

Additional observations from a re-analysis of the deposited data

Results flagged for a closer look

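In 22 groups of values (the 10 genes and their sum in each prenatal group), the highest or lowest library was compared with the rest by Dixon's gap ratio, and 3 groups had a value apart; about 1 in 20 groups is so by chance. Tceal5 was 205.48 TPM in saline replicate 7, a gap of 0.57 of the range of the 8 saline libraries, more than Dixon's 95% critical value allows. The summed TPM of the 10 genes was 1663.01 in the same library, with a gap of 0.56 of the range. This is the library with the high olfactory bulb markers; the part of that tissue in either value was not tested. Tceal6 was 98.61 TPM in Poly(I:C) replicate 4, a gap of 0.64 of the range of the 9 Poly(I:C) libraries, while its near copy Tceal3 was 230.96 TPM there, the second highest of the group.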

How the results depend on the processing

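No alternative called any of the 10 genes. Over all genes, limma called 2 genes after median-of-ratios scaling, 2 with a replicate block, and 0 to 1 when 1 library was left out (1 without saline replicate 4), against 0 as reported. Of 250 values of the 10 genes under 25 alternatives, none moved by more than the spread between libraries, and 8 lay above 0, all of Tceal1 (-0.035 to 0.027). Many of these values could hardly move. The settings without a filter and with a minimum of 5 TPM repeat the reported values of the 10 genes. The replicate block repeats those without Poly(I:C) replicate 9, and leaving out 1 library shifts a mean little. The count is therefore a description and no test. Tceal5 stayed between -0.29 and -0.22. Same-numbered libraries did not vary together (r from -0.22 to 0.082 over 8 pairs, 0 above 0.1), and 1 of 8 correlated best with its own number. No pairing by number was thus seen in these values. Whether same-numbered animals share a litter or a batch was not tested. With the replicate block, in which Poly(I:C) replicate 9 has no partner, the median log2 difference of the 10 genes was -0.11. TPM without counts leaves the reads behind each value unknown, and the low genes Tceal7, Bex6 and Ngfr are the least certain.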
